A study of Mus musculus with 48 samples.

Results

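A set of 10 genes of the immediate early class was followed through ChIP-seq of mouse embryonic stem cells that lack ZBTB11, ZFP131 or both of these zinc finger proteins. They were the transcription factor genes Egr1, Egr2, Egr3 and Nr4a1, the small nuclear protein and survival genes Ier2, Ier3 and Ier5, the MAP kinase phosphatase gene Dusp1, and the matricellular protein genes Ccn1 and Ccn2. They were chosen by name, and a listed region was assigned to a gene where it lay within 1 kb of either end of the gene (mm10). The 10 genes stand among 21900 protein-coding genes of the annotation.

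Immediate early genes are switched on within minutes of a growth factor or stress signal, without new protein synthesis. Before the signal, RNA polymerase II is already engaged just past the start of many of them and is held there by the negative elongation factor NELF. Serum response factor, which binds the CArG box, and factors of the ERK, cyclic AMP and YAP pathways then act on their promoters. In stem cells, medium with 2i holds ERK signalling down through the MEK inhibitor PD0325901, next to the GSK3 inhibitor CHIR.

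All lines derive from the Ainv15 embryonic stem cell line. The double knockout line, iZbtb11-HA iZfp131-V5 Zbtb11KO Zfp131KO, carries doxycycline-inducible tagged copies of both deleted factors. The single knockouts are iZbtb11-HA Zbtb11KO and iZfp131-HA Zfp131KO, each with an inducible HA-tagged copy of the factor it lacks. The wildtype is the iCre line, so the knockouts and the wildtype differ in their transgene as well as in the deletion, and 1 line is named per genotype; a knockout and a difference between lines cannot be told apart. Cells were kept for 3 days without doxycycline in medium with LIF and without 2i, except for HA ChIP, for which the single knockout lines were kept for 3 days with doxycycline in medium with 2i and LIF. The 48 samples form 24 groups of 2 libraries. NELF and H3K4me3 (a mark of active promoters) were measured in all 4 genotypes. H3K27ac (active regulatory elements), H3K27me3 (Polycomb repression) and the corepressor subunits SIN3A and CHD4 were measured in the single knockouts and wildtype. The H3K4 methyltransferase SETD1A and polymerase II phosphorylated at serine 5 (S5P, the initiated form) were measured in wildtype. Nothing in the labels says that the 2 libraries of a group were separate cultures, so adjusted p-values measure a spread that may be technical.

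The files hold 1 pooled list per group and the authors' DESeq2 comparison tables, so no value per library was at hand. Total reads per event list ran between 24.0 M for ZFP131 and 71.6 M for NELF in the double knockout. The wildtype NELF list names 1 signal library in its header and places 23.1% of its reads in events, against 5.1% in the double knockout, 9.8% in Zbtb11KO and 11.4% in Zfp131KO; the part of this gap in the NELF ratios below was not tested. Marker genes are given for wildtype alone. Of 8 embryonic stem cell markers, 7 had an H3K27ac domain, and 8 had a domain of S5P polymerase, with 4453 to 14596 reads. Among all genes the shares were 46.1% for H3K27ac and 57.3% for S5P polymerase. Of 6 fibroblast (feeder) markers, 0 had either. Of 6 primitive endoderm markers, 1 had H3K27ac and 2 had S5P polymerase, with at most 107 reads. Of 4 trophectoderm markers, 0 had H3K27ac and 2 had S5P polymerase, with at most 170 reads. H3K4me3 set the marker lists apart less, with a domain at 64.2% of all genes. It had one at 7 of 8 embryonic stem cell, 4 of 6 primitive endoderm, 3 of 4 trophectoderm and 3 of 6 fibroblast markers.

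RefSeq start sites and promoter sequences (GRCm38.p6, the assembly of mm10) were matched for 6 of the 10 genes: Egr2, Ier3, Ier5, Dusp1, Nr4a1 and Ccn1. Egr1, Egr3, Ier2 and Ccn2 are described by their gene ends. The 250 bases before a start were searched on both strands for the CArG box (2 C, 6 A or T, 2 G), TATAAA, the cyclic AMP element TGACGTCA and its part TGACG, the EGR motifs GCGTGGGCG and GCGGGGGCG, the AP-1 motif TGACTCA, the TEAD motif GGAATG and the ETS motif CCGGAAGT. Below, the promoter of Ccn1 (chr3:145649986-145650235, minus strand) is shown because many of the values that follow concern it, and that of Dusp1 (chr17:26508473-26508722, minus strand) because it carries the full cyclic AMP element. Both are written 5' to 3' in the gene's direction, ending 1 base before the start. Shorter sites of 30 bases follow: the CArG boxes at 2 internal promoters of Egr2 (chr10:67537484-67537513 and chr10:67537787-67537816, plus strand) and the EGR motif before the internal start of Nr4a1 (chr15:101266775-101266804, plus strand). Capitals mark the motifs found that lie whole within the stretch; a motif on the opposite strand appears as its reverse complement.
Ccn1: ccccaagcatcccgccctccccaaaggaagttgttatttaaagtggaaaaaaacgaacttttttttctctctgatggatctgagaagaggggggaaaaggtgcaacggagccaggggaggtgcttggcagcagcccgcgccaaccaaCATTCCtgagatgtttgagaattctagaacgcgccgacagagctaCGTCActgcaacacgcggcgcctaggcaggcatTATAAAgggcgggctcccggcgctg
Dusp1: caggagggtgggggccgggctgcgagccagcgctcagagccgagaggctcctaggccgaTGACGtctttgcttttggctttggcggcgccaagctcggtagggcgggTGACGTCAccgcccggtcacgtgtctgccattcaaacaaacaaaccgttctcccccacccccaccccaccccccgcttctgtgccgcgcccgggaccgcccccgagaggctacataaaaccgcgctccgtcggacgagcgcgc
Egr2 first CArG box: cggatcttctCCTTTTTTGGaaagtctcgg
Egr2 second CArG box: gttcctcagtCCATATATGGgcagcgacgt
Nr4a1 EGR motif: tgCGTCAgtggCGCCCCCGCccctctccat
In Ccn1, TATAAA lies 25 to 20 bases before the start, TGACG at 58 to 54 on the opposite strand, and GGAATG, the TEAD motif, at 103 to 98 on the opposite strand. In Dusp1 the palindrome TGACGTCA lies 143 to 136 bases before the start and itself contains 2 overlapping copies of TGACG, with another at 191 to 187. The CArG boxes of Egr2 lie 72 to 63 bases before the starts at 67537566 and 67537869. Nr4a1 has TGACG at 4 places, GCGGGGGCG at 60 to 52 and GGAATG at 198 to 193. No motif searched was found before the starts of Ier3 and Ier5. Among 32851 RefSeq starts, 1.47% have a CArG box in this window, 12.4% TATAAA, 1.55% TGACGTCA, 17.8% TGACG, 2.57% GCGGGGGCG and 12.6% GGAATG. The share was 0.536% for GCGTGGGCG, 4.46% for TGACTCA and 2.88% for CCGGAAGT, which were not found at these genes. A match says that the letters are present, not that a factor binds there.

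In wildtype cells the genes differed widely in polymerase and NELF within the window. Egr1 and Ier2 had the most reads of both. Egr1 (chr18:34861207-34864956) lay under an S5P polymerase domain of 9985 bp with 35752 reads, a number that 7 of 12556 genes with such a domain reached, Egr1 included. Its NELF events held 4508.6 reads, and 4 of 12988 genes with a NELF event had as many. Ier2 (chr8:84661331-84662852) had 23961 polymerase reads in 14506 bp, 3684.6 NELF reads and an H3K4me3 domain of 14458 reads over 6245 bp, reached by 9 of 14055 genes.

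Next came Dusp1 (chr17:26505591-26508472), Ccn1 (chr3:145646971-145649985), Ccn2 (chr10:24595442-24598683), Ier3 (chr17:35821713-35822911) and Ier5 (chr1:155096367-155099636). Their polymerase reads ranged from 1690 at Ier5 to 3860 at Dusp1, and their NELF reads from 1269.8 at Ccn1 to 2861.1 at Dusp1. Nr4a1 (chr15:101253902-101274795) was lower, with 313 polymerase and 477.9 NELF reads. The fewest within the window were at Egr2 (chr10:67534469-67542188) and Egr3 (chr14:70077317-70082613), with 81 and 31 polymerase reads. Egr3 had 1 NELF event with 94.7 reads, and Egr2 had none within the window. The window misses internal RefSeq starts of Egr2 and Nr4a1, where the largest polymerase domain held 308 reads at Egr2 and 775 at Nr4a1, and NELF events held 347.2 and 757.8 reads, so the order of these genes rests on the window. These reads are sums over listed regions in 1 pooled list each, so neighbouring genes in this order cannot be tested against each other.

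The strongest wildtype NELF event lay just inside the gene wherever a start was known at a gene end. Its distance past the RefSeq start was 38 bp at Ier3, 97 bp at Ier5, 99 bp at Ccn1 and 123 bp at Dusp1. At Egr1, Ccn2, Nr4a1 and Ier2 it lay 26, 190, 478 and 1428 bp past the lower gene end. At Egr3 it lay outside the gene, at -436 bp from that end.

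NELF was lower in Zbtb11KO cells at 6 of the 9 genes with a region, and at 0 genes was it higher, in the authors' deposited table at a DESeq2 adjusted p under 0.05 for the region with the highest mean signal. This is close to the whole genome: 55.3% of 13321 genes were lower and 0.0901% higher in that table. The median log2 fold change, Zbtb11KO over wildtype, was -1.03 over the 9 genes and -0.97 over all genes of the authors' deposited table. When the table was centred on its own median, 0 of the 9 genes were called.

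**Figure D1:**
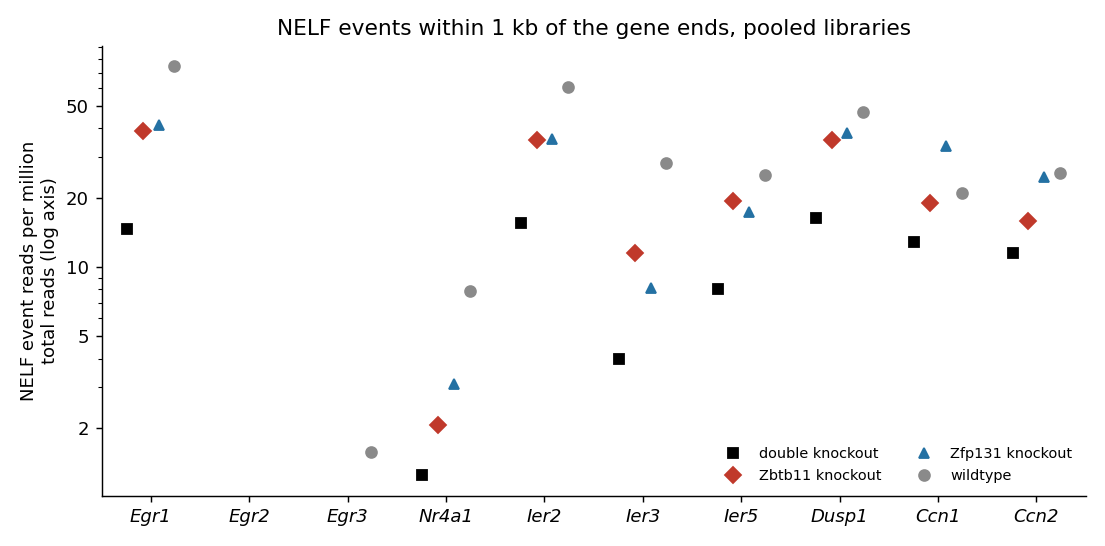
NELF event reads within 1 kb of the gene ends in RPM, scaled by total reads (log axis), 1 pooled value per genotype with no error bar, for the 4 genotypes side by side at each gene. The double knockout lies below wildtype at the 8 genes listed in both, Ccn1 is the one gene plotted at which Zfp131KO lies above wildtype, Egr2 has no event in the window, and Egr3 has one in wildtype alone.

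The transcription factor genes Egr1 and Nr4a1 were among the 6. Egr1, the zinc finger factor induced by ERK through serum response factor, had NELF event reads of 1052 in the double knockout, 1992 in Zbtb11KO, 2547.5 in Zfp131KO and 4508.6 in wildtype. In RPM (event reads divided by the total reads in M) these are 14.7, 39.0, 41.4 and 74.5 in the same order of genotypes. The authors' deposited table gave a log2 fold change of -1.32 for Zbtb11KO over wildtype (SE 0.29, DESeq2 adjusted p = 0.000182), with 19 of 21 overlapping regions at the gene lower. Scaled by total reads, all 3 knockouts thus lay below wildtype at Egr1, and the double knockout lay lowest. Relative to the median of all genes, Egr1 lay at -0.58 in the double knockout, -0.024 in Zbtb11KO and -0.11 in Zfp131KO.

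Nr4a1, a nuclear receptor gene, had 89.1 NELF reads in the double knockout, 105 in Zbtb11KO, 191 in Zfp131KO and 477.9 in wildtype at its lower gene end. Its log2 fold change in the authors' deposited table was -1.16 (SE 0.43, DESeq2 adjusted p = 0.0219), and the longest of its 3 regions missed the threshold (-0.97, adjusted p = 0.0587 in the authors' deposited table). Egr3, a relative of Egr1, was listed in wildtype alone, and its log2 fold change of -1.11 (SE 0.57, DESeq2 adjusted p = 0.0868 in the authors' deposited table) did not pass.

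Among the Ier genes, 2 of 3 passed in the authors' deposited table. Ier2, a nuclear protein gene, had 1107.8 NELF reads in the double knockout, 1815.1 in Zbtb11KO, 2209.5 in Zfp131KO and 3684.6 in wildtype, and the authors' deposited table gave -1.03 for Zbtb11KO (SE 0.32, DESeq2 adjusted p = 0.00619). Ier3, which encodes a survival protein, had 284.9 reads in the double knockout, 588.1 in Zbtb11KO, 498.2 in Zfp131KO and 1713.3 in wildtype, with a log2 fold change of -1.28 for Zbtb11KO in the authors' deposited table (SE 0.36, DESeq2 adjusted p = 0.00287). At both genes each knockout lay below wildtype, and every region of the authors' deposited table at them was lower in Zbtb11KO, 16 of 16 at Ier2 and 8 of 8 at Ier3. Ier5 had 576.6 reads in the double knockout, 990.1 in Zbtb11KO, 1070.8 in Zfp131KO and 1516.5 in wildtype. Its log2 fold change of -0.46 in Zbtb11KO (SE 0.36, DESeq2 adjusted p = 0.243 in the authors' deposited table) did not pass, nor did any of its 5 regions.

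Dusp1, whose product removes phosphate from MAP kinases, had 1163.7 NELF reads in the double knockout, 1829.4 in Zbtb11KO, 2345.2 in Zfp131KO and 2861.1 in wildtype. The authors' deposited table gave -0.88 for Zbtb11KO (SE 0.31, DESeq2 adjusted p = 0.0148). Ccn2, a secreted matrix protein gene known as a YAP target, had 824.3 reads in the double knockout, 811.2 in Zbtb11KO, 1509.6 in Zfp131KO and 1549.1 in wildtype. It was lower in Zbtb11KO in the authors' deposited table, with a log2 fold change of -0.90 (SE 0.36, DESeq2 adjusted p = 0.0302). Per total reads its log2 ratio to wildtype was -1.15 in the double knockout, -0.69 in Zbtb11KO and -0.061 in Zfp131KO, so the double knockout lay lowest and Zfp131KO nearest to wildtype.

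Ccn1, the other YAP target, was the one gene with more NELF per total reads in Zfp131KO than in wildtype within the window. It had 917.5 NELF reads in the double knockout, 971.3 in Zbtb11KO, 2060.6 in Zfp131KO and 1269.8 in wildtype. In RPM the Zfp131KO value was 33.5 against 21.0 in wildtype, a log2 ratio of 0.67, where the median over the genes listed in both was -0.73. The internal starts of Egr2, outside the window, also held more, with 10.4 RPM over 3 events in Zfp131KO and 5.74 RPM over 1 event in wildtype, a log2 ratio of 0.86. The single event 80 bp past the start held 1575.8 of the Zfp131KO reads, and the event at 99 bp held 1063 of the wildtype reads. In Zbtb11KO the log2 fold change of Ccn1 in the authors' deposited table was -0.46 (SE 0.33, DESeq2 adjusted p = 0.21) and did not pass. The NELF tables deposited for the 2 single knockouts were identical, and all events of the Zbtb11KO list but 94.3% of those of the Zfp131KO list lie inside its regions, so it was read as Zbtb11KO and NELF in Zfp131KO has no tested value.

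In the double knockout, 8 of the 9 genes with NELF in wildtype were still listed, Egr3 being the exception, as in each single knockout. Of all genes with at least 50 wildtype NELF reads, 49.2% were still listed in the double knockout, 72.5% in Zbtb11KO and 74.2% in Zfp131KO. Genes with as much NELF in wildtype as the median of these genes, 1549.1 reads or more, stayed listed in 97.1% of cases in the double knockout, 100% in Zbtb11KO and 99.9% in Zfp131KO. Of the immediate early genes, 5 reach that level, and all 5 stayed listed in each knockout; Ier5, Ccn1, Nr4a1 and Egr3 lie below it. The log2 ratio per total reads, double knockout over wildtype, ran from -2.83 at Ier3, -2.67 at Nr4a1 and -2.34 at Egr1 to -1.15 at Ccn2 and -0.71 at Ccn1. Its median was -1.81, against -1.76 over all genes listed in both; in Zbtb11KO the medians were -0.73 and -0.91, and in Zfp131KO -0.64 and -0.73. Against the median of all genes, Ccn1 lay 1.05 above it and Ier3 1.07 below it (-1.07). At Ier3, 3 wildtype events with 511 reads lay within 1 kb of its higher end, where the double knockout had 0. Within 1 kb of its start Ier3 had 284.9 reads in the double knockout and 1369.6 in wildtype, so its place in this order depends on the window. The double knockout pools libraries with 2.7% and 8% of their reads in events.

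With the reads scaled by the reads in each list in place of the total reads, the median of the 8 genes in the double knockout turned to 0.70, so whether NELF is lower at them in the double knockout rests on the scaling by total reads. The single knockouts were not rescaled this way. Their NELF lists hold 4168618.3 reads in Zbtb11KO and 5856159.5 in Zfp131KO, against 12019740.1 in wildtype. Their ratios per total reads thus depend on the scaling too.

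**Figure D2:**
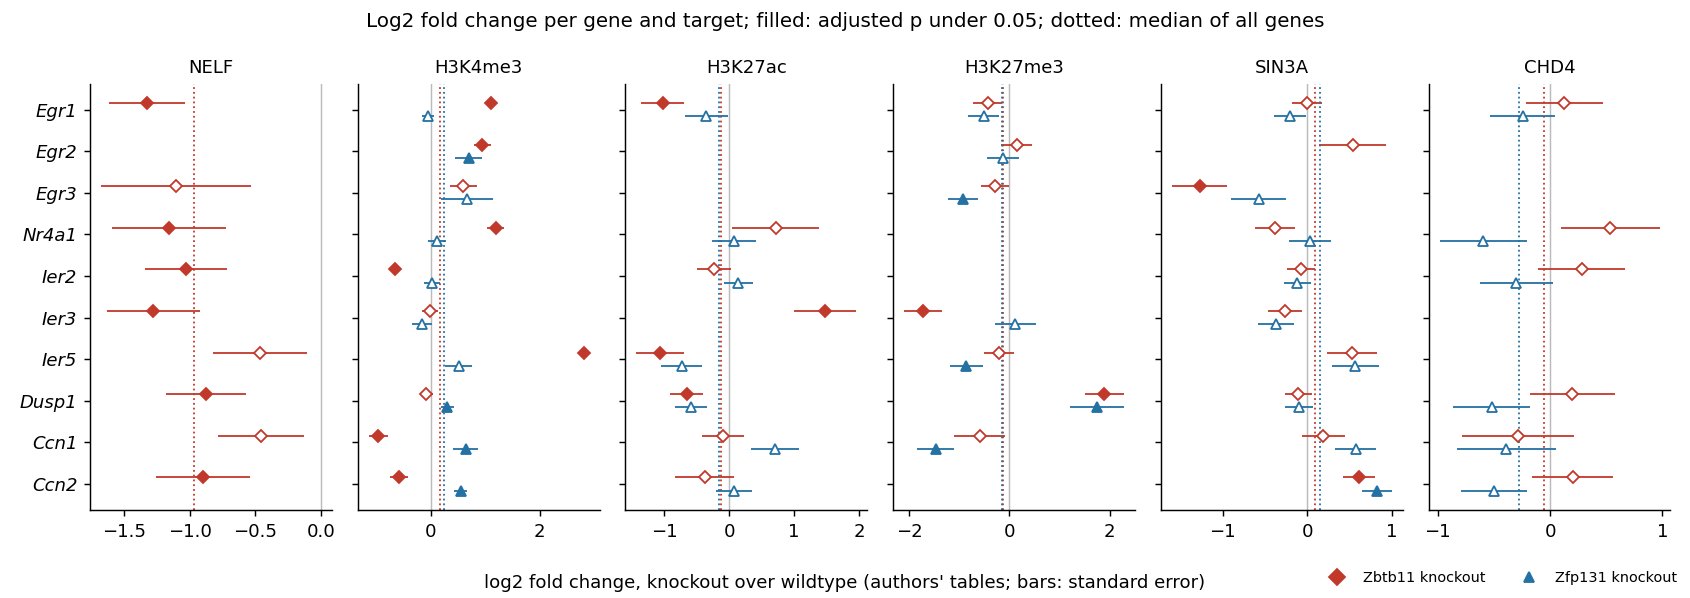
Log2 fold change, knockout over wildtype, in the authors' deposited tables for the region with the highest mean signal at each gene, with its standard error, by target; diamonds are Zbtb11KO and triangles Zfp131KO, filled where the DESeq2 adjusted p is under 0.05. Dotted lines mark the median of all genes in each table, and NELF has Zbtb11KO alone. The 9 NELF points lie below 0, around the line of all genes, while the H3K4me3 points of Zbtb11KO lie on either side of 0.

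H3K4me3 was present at all 10 genes in all 4 genotypes and changed in both directions in Zbtb11KO. Called higher in the authors' deposited table were 4 genes (Ier5, Nr4a1, Egr1 and Egr2), and lower were 3 (Ccn1, Ier2 and Ccn2), where 42.4% of 14238 genes were higher and 24.5% lower. In Zfp131KO 4 genes were higher (Egr2, Ccn1, Ccn2 and Dusp1) and 0 lower, against 33.5% and 4.18% of 14277 genes in the authors' deposited table. The median log2 fold change of the 10 genes was 0.29 in Zbtb11KO and 0.41 in Zfp131KO, beside 0.17 and 0.24 over all genes of the authors' deposited tables. The comparisons of the single knockouts share their wildtype libraries. The Zbtb11KO table runs wide: across 13564 genes its log2 fold changes have an SD of 1.33, against 0.63 for the ratios of listed reads, with a Spearman correlation of 0.85 between these measures across genes. Its scaling is not given in the sources used here, so its directions are given beside the listed reads.

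Ier5, a regulator of heat shock and stress responses, had 5930 H3K4me3 reads in the double knockout, 5058 in Zbtb11KO, 3820 in Zfp131KO and 3328 in wildtype. These are reads of domains joined where they overlap across genotypes, not scaled for depth; the H3K4me3 lists hold 59.5 M, 28.3 M, 32.3 M and 35.1 M reads in the same order of genotypes. Ier5 rose in Zbtb11KO by 2.81 (SE 0.091, adjusted p = 2.18e-205) in the authors' deposited DESeq2 table, and its listed reads also exceeded wildtype, with a log2 ratio of 0.60 where the median gene had -0.42. Relative to the median gene of each comparison Ier5 lay at 0.12 in the double knockout, 1.03 in Zbtb11KO and 0.30 in Zfp131KO, so it stood highest in Zbtb11KO once the size of the lists is taken into account. In Zfp131KO the authors' deposited table gave Ier5 0.51 (SE 0.25, DESeq2 adjusted p = 0.121), which did not pass.

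Egr2 had 4537 H3K4me3 reads in the double knockout, 2056 in Zbtb11KO, 2504 in Zfp131KO and 1888 in wildtype. It rose in both single knockouts in the authors' deposited tables, by 0.94 in Zbtb11KO (SE 0.15, DESeq2 adjusted p = 4.00e-09) and by 0.69 in Zfp131KO (SE 0.25, adjusted p = 0.0265). Each knockout was listed above wildtype, and relative to the median gene Egr2 lay at 0.55 in the double knockout, 0.54 in Zbtb11KO and 0.51 in Zfp131KO. Egr3 had 546 reads in the double knockout, 694 in Zbtb11KO, 1083 in Zfp131KO and 804 in wildtype, and its changes of 0.59 and 0.66 in the single knockouts did not pass in the authors' deposited tables (DESeq2 adjusted p = 0.05001 and 0.318). Egr3 was the 1 gene with fewer reads in the double knockout than in wildtype, in a list with more reads in all.

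Egr1 and Nr4a1 were called higher in Zbtb11KO although their listed reads were fewer than in wildtype. Egr1 was higher by 1.10 (SE 0.089, DESeq2 adjusted p = 9.30e-34) in the authors' deposited table, and had 9109 listed reads in the double knockout, 5304 in Zbtb11KO, 5779 in Zfp131KO and 7615 in wildtype, a log2 ratio of -0.52 for Zbtb11KO and of -0.10 relative to the median gene. Nr4a1 was higher by 1.19 (SE 0.16, DESeq2 adjusted p = 1.97e-12) in the authors' deposited table, and had 2764, 1352, 1322 and 1513 reads in the same order of genotypes, a log2 ratio of -0.16 for Zbtb11KO and of 0.26 relative to the median gene. Scaled by the reads in each list the ratios were -0.21 at Egr1 and 0.15 at Nr4a1. For Nr4a1 the scaled listed reads thus had the sign of the table, and for Egr1 they had the opposite sign. The Nr4a1 call is for its lower gene end. At its internal RefSeq start the authors' deposited table gave 0.25 in Zbtb11KO (SE 0.18, DESeq2 adjusted p = 0.308), which did not pass. Listed H3K4me3 reads there were 1257 in Zbtb11KO and 1576 in wildtype. With RefSeq starts, where matched, in place of gene ends, 3 of the 10 genes were higher in Zbtb11KO.

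Ier2 and the YAP targets were lower in Zbtb11KO by either measure. Ier2 had 18525 H3K4me3 reads in the double knockout, 8267 in Zbtb11KO, 11597 in Zfp131KO and 14458 in wildtype, with a log2 fold change of -0.66 in Zbtb11KO (SE 0.083, DESeq2 adjusted p = 1.31e-14) in the authors' deposited table. Ccn1 had 6793 reads in the double knockout, 1197 in Zbtb11KO, 3590 in Zfp131KO and 2705 in wildtype. In the authors' deposited tables Ccn1 fell by 0.97 in Zbtb11KO (SE 0.17, DESeq2 adjusted p = 1.43e-07) and rose in Zfp131KO by 0.64 (SE 0.23, adjusted p = 0.0259). Ccn2 had 6054 reads in the double knockout, 1798 in Zbtb11KO, 3182 in Zfp131KO and 2717 in wildtype, and the authors' deposited tables gave -0.59 in Zbtb11KO (SE 0.16, DESeq2 adjusted p = 0.0012) and 0.55 in Zfp131KO (SE 0.12, adjusted p = 4.29e-05). Ccn1 and Ccn2 thus passed the threshold in opposite directions in the 2 single knockouts, Zbtb11KO below and Zfp131KO above wildtype; the difference between the knockouts was not itself tested.

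Dusp1 had 6963 H3K4me3 reads in the double knockout, 3758 in Zbtb11KO, 4955 in Zfp131KO and 4982 in wildtype, and rose in Zfp131KO by 0.30 (SE 0.11, DESeq2 adjusted p = 0.0324) in the authors' deposited table. Ier3, whose domain also covers an end of the neighbouring gene Flot1, had 3227, 1904, 2036 and 2853 reads in the same order of genotypes and passed in neither of the authors' deposited tables. Over the 10 genes the median log2 ratio of listed H3K4me3 reads, double knockout over wildtype, was 0.66, beside 0.72 over all genes. Relative to that gene median Ccn1 lay at 0.61, Egr2 at 0.55 and Ccn2 at 0.44, while Egr3 lay at -1.28. The median of the 10 genes turned to -0.10 when scaled by the reads in each list, so their higher counts go with the larger list.

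**Figure D3:**
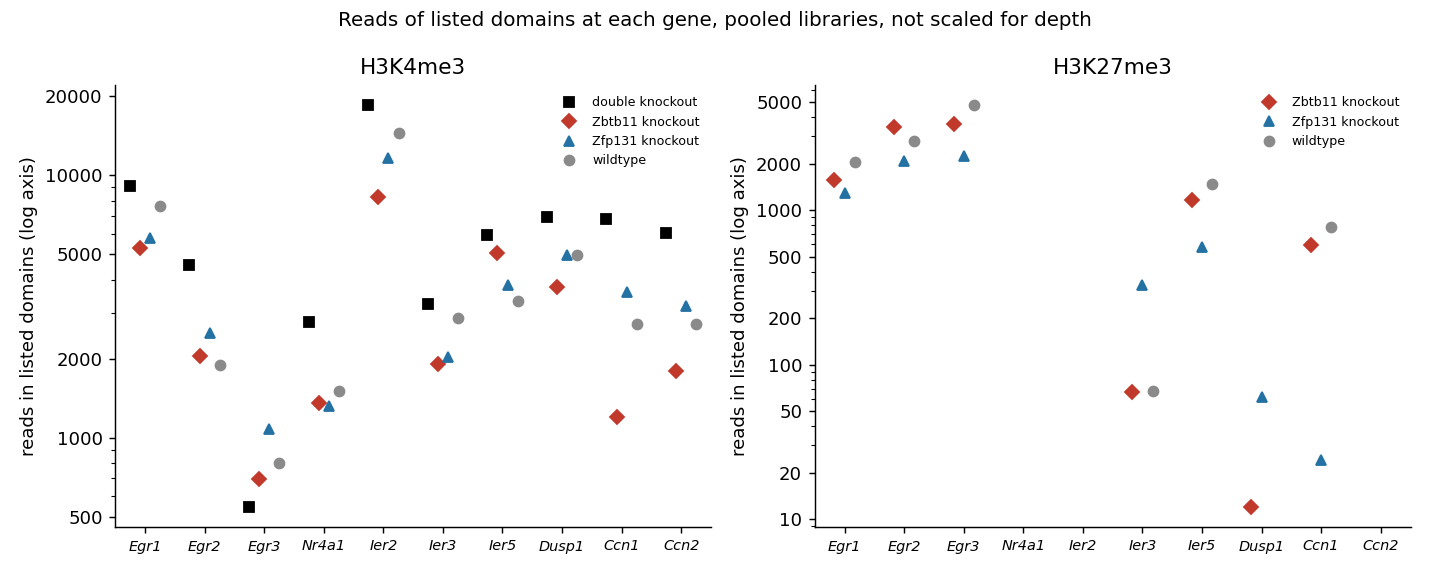
Reads in listed H3K4me3 (left) and H3K27me3 (right) domains at each gene (log axis), 1 pooled value per genotype, not scaled for depth and with no error bar; a missing point means no listed domain, and the double knockout was measured for H3K4me3 alone. H3K27me3 has no domain at Nr4a1, Ier2 and Ccn2 in any genotype shown, and Zfp131KO lies far below wildtype at Ccn1.

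H3K27me3 divided the genes. A wildtype domain lay at 6 of the 10, where 24.6% of all genes had one: Egr3, Egr2, Egr1, Ier5, Ccn1 and Ier3. Ier2, Nr4a1 and Ccn2 had none in any genotype. Dusp1 had none in wildtype and small ones in Zbtb11KO (12 reads) and Zfp131KO (62 reads). In Zfp131KO the authors' deposited table called Ccn1, Egr3 and Ier5 lower and Dusp1 higher, where 6.59% of 6570 genes were lower and 9.95% higher. In Zbtb11KO it called Ier3 lower and Dusp1 higher, where 3.51% of 6359 genes were lower and 6.46% higher. Over the 7 genes with a region the median log2 fold change in the authors' deposited tables was -0.29 in Zbtb11KO and -0.51 in Zfp131KO, beside -0.13 and -0.15 over all genes.

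Ccn1 lost nearly all of its listed H3K27me3 in Zfp131KO. The Zbtb11KO list of H3K27me3 domains holds 5.62 M reads, the Zfp131KO list 3.72 M and the wildtype list 6.43 M, and the median gene had a log2 ratio of listed reads to wildtype of -0.26 in Zbtb11KO and -0.83 in Zfp131KO. Ccn1 had 599 reads in 1927 bp in Zbtb11KO, 24 reads in 96 bp in Zfp131KO and 777 reads in 1956 bp in wildtype, which relative to the median gene is -0.11 in Zbtb11KO and -4.19 in Zfp131KO. The log2 fold change in Zfp131KO was -1.47 for the region with the highest mean signal, which spans 80 bp (SE 0.36, DESeq2 adjusted p = 0.0011), and -1.65 for the longest one of 1805 bp (SE 0.37, adjusted p = 0.000196), as the authors' deposited table has them. All 3 regions at Ccn1 were lower in that comparison. In Zbtb11KO the longest region gave -0.39 (SE 0.33, DESeq2 adjusted p = 0.459 in the authors' deposited table). At the same gene H3K27ac was listed with 50 reads in Zbtb11KO, 161 in Zfp131KO and 87 in wildtype, and its log2 fold change of 0.70 in Zfp131KO (SE 0.37, DESeq2 adjusted p = 0.138 in the authors' deposited table) did not pass. An HA-ZFP131 event of 164 reads lay 17 bp past the Ccn1 start, with a log2 fold over control of 3.58, in cells kept in 2i with the factor induced. An end of the noncoding RNA gene Gm17501 lies inside the wildtype H3K4me3 domain of Ccn1.

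**Figure D4:**
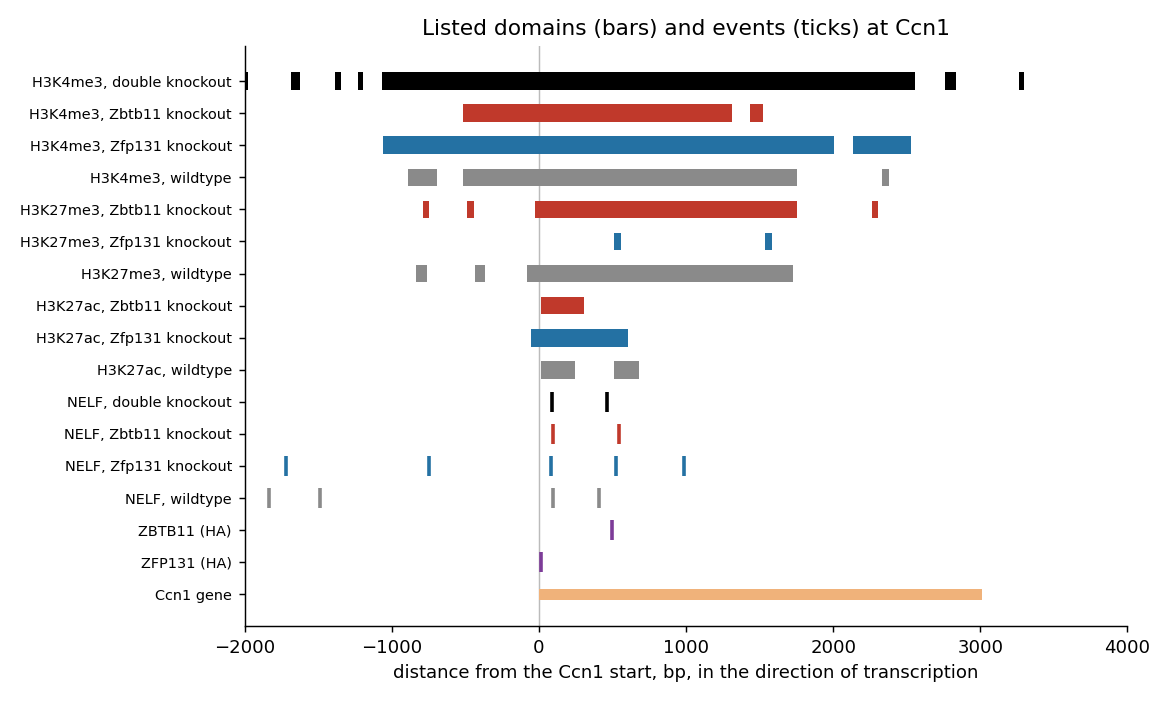
Listed domains (bars) and events (ticks) from 2 kb before to 4 kb past the RefSeq start of Ccn1, in the direction of transcription, by target and genotype, with the gene body at the bottom; each line is 1 pooled list. The wildtype and Zbtb11KO H3K27me3 domains cover the first 1724 and 1754 bp of the gene, and Zfp131KO has 2 short ones. The H3K4me3 domain at the start reaches out to -1061 bp in Zfp131KO and to -1064 bp in the double knockout.

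The Egr genes carried the heaviest H3K27me3 of the 10. Egr3 had 3624 reads in Zbtb11KO, 2229 in Zfp131KO and 4796 in wildtype, and fell by 0.92 in Zfp131KO (SE 0.30, DESeq2 adjusted p = 0.0168) in the authors' deposited table, in which 4 of its 5 regions were lower. Its longest region missed the threshold (-0.80, DESeq2 adjusted p = 0.0603 in the authors' deposited table). Egr2 had 3436 reads in Zbtb11KO, 2088 in Zfp131KO and 2809 in wildtype, and Egr1 had 1572, 1297 and 2047 in the same order. Neither passed in the authors' deposited tables for the region with the highest mean signal. Other regions did pass in Zbtb11KO: 1 of 4 at Egr1 was higher, and 1 of 4 at Egr3 and 3 of 6 at Ier5 were lower. At Egr2 0 of 4 passed. Ier5 had 1155 reads in Zbtb11KO, 579 in Zfp131KO and 1472 in wildtype, with -0.85 in Zfp131KO in the authors' deposited table (SE 0.32, DESeq2 adjusted p = 0.0486). Relative to the median gene, the listed reads in Zfp131KO lay at -0.27 at Egr3, 0.40 at Egr2, 0.17 at Egr1 and -0.52 at Ier5, so most of the gap in listed reads between Zfp131KO and wildtype at these genes is shared by the median gene.

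The next 3 H3K27me3 calls rest on regions under 50 bp: Ier3 in Zbtb11KO (-1.72, 39 bp) and Dusp1 in Zbtb11KO (1.90, 33 bp) and in Zfp131KO (1.75, 47 bp), all from the authors' deposited tables. At Ier3 the longest region, 772 bp, rose in Zfp131KO by 1.05 (SE 0.38, DESeq2 adjusted p = 0.0352) in the authors' deposited table. Ier3 had 66 listed reads in Zbtb11KO, 328 in Zfp131KO and 67 in wildtype.

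H3K27ac fell in Zbtb11KO at Egr1, Dusp1 and Ier5 and rose at Ier3 in the authors' deposited table, in which 9.94% of 10494 genes were lower and 3.7% higher. In Zfp131KO 0 of 7 genes passed at a DESeq2 adjusted p under 0.05 for the region with the highest mean signal. In that comparison 11.1% of 10571 genes were lower and 4.56% higher in the authors' deposited table. At an unadjusted p under 0.05, 2 of the 7 would pass (Ier5 at -0.73 and Dusp1 at -0.58), beside 2491 of the 10571 genes. Ier5 has 2 regions in Zfp131KO, and the one with less signal was called higher (1.26), opposite to the one used. Egr1 had 245 H3K27ac reads in Zbtb11KO, 553 in Zfp131KO and 804 in wildtype, and fell by 1.02 in Zbtb11KO (SE 0.33, DESeq2 adjusted p = 0.0124) in the authors' deposited table. Dusp1 had 563 reads in Zbtb11KO, 633 in Zfp131KO and 1037 in wildtype, and fell by 0.65 in Zbtb11KO (SE 0.26, DESeq2 adjusted p = 0.046) in the authors' deposited table. At each of these genes wildtype was above both single knockouts. Relative to the median gene, listed H3K27ac lay at -1.36 in Zbtb11KO and -0.26 in Zfp131KO for Egr1, and at -0.52 in Zbtb11KO and -0.44 in Zfp131KO for Dusp1. The calls at Ier5 (-1.05, 64 bp) and Ier3 (1.47, 49 bp) in the authors' deposited table rest on short regions with 0 listed reads in Zbtb11KO and 15 in wildtype at Ier5, and 11 in Zbtb11KO and 0 in wildtype at Ier3. Egr2 and Egr3, without an H3K27ac domain in the window, could not be compared. The medians over the genes with a region were -0.30 in Zbtb11KO and 0.074 in Zfp131KO, beside -0.13 and -0.15 over all genes of the authors' deposited tables.

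Among the corepressors, SIN3A, the scaffold of a histone deacetylase complex, changed at 2 genes. Ccn2 rose in both single knockouts in the authors' deposited tables, by 0.62 in Zbtb11KO (SE 0.19, DESeq2 adjusted p = 0.0247) and by 0.82 in Zfp131KO (SE 0.18, adjusted p = 0.000583). Its listed SIN3A reads were 434 in Zbtb11KO and 436.5 in wildtype, or 13.2 and 13.1 RPM, so per total reads the pooled lists do not show this difference. The SIN3A lists hold 7257329.5 reads in Zbtb11KO and 10084257 in wildtype. Scaled by the reads in each list, Ccn2 would thus lie higher in Zbtb11KO, so this comparison depends on the scaling. In the authors' deposited tables, 0 genes passed in Zbtb11KO with the longest region of each gene, and 0 in Zfp131KO with the region nearest to a gene end. Egr3 fell by 1.27 in Zbtb11KO (SE 0.33, DESeq2 adjusted p = 0.00536) in the authors' deposited table and had 59.5 listed reads there, against 252.5 in wildtype. Of 13766 genes in the authors' deposited table, 5.6% were higher and 2.33% lower in Zbtb11KO, and of 12866 genes 5.62% were higher and 1.57% lower in Zfp131KO. The median log2 fold changes of the genes were -0.039 in Zbtb11KO and -0.098 in Zfp131KO, beside 0.094 and 0.15 over all genes of the authors' deposited tables. The SIN3A event list deposited for Zfp131KO is identical to that of CHD4 and was not used, so the direction of the Zfp131KO table could not be checked on regions listed in the knockout alone; its 235 regions that no wildtype event touches had a median of 0.56 in the authors' deposited table.

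CHD4, the remodeller of the NuRD complex, had a region at 6 of the genes (Egr1, Ier2, Dusp1, Nr4a1, Ccn1 and Ccn2), and 0 of 6 passed in either single knockout at a DESeq2 adjusted p under 0.05 in the authors' deposited tables; at an unadjusted p under 0.05 the number was 0 as well. Of 3144 genes in the authors' deposited table for Zbtb11KO, 2.1% were higher and 0.636% lower, and of 3909 genes in that for Zfp131KO, 1.1% were higher and 6.09% lower. Log2 fold changes ran from -0.29 to 0.53 in Zbtb11KO and from -0.59 to -0.24 in Zfp131KO in the authors' deposited tables. Their medians were 0.20 and -0.44, beside -0.055 and -0.28 over all genes of the authors' deposited tables. Events held 36.6 to 157.2 reads per gene where any was listed. Low counts were general for CHD4: the median gene with an event had 64 reads in Zbtb11KO, 61 in Zfp131KO and 60 in wildtype.

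HA-tagged ZBTB11 had an event at 6 of the 10 genes (Ier2, Ier3, Dusp1, Nr4a1, Ccn1 and Ccn2), where 35.9% of all genes had one. The reads per gene ranged from 37.2 at Nr4a1 to 313.8 over 4 events at Ier2, and the median gene with an event had 119. HA-tagged ZFP131 had an event at 4 of the 10 (Egr1, Ier2, Dusp1 and Ccn1), where 10.2% of all genes had one. Ccn1 had 164 reads of ZFP131 and 50 of ZBTB11. At Egr1 the ZFP131 events held 42.2 to 46.9 reads each, and ZBTB11 had none within 1 kb. Those of 44.2 and 46.9 reads lay outside the gene, 71 and 569 bp beyond its higher end. That of 42.2 reads lay inside it, 349 bp from its lower end. With a window of 2 kb, ZBTB11 had an event at 9 of the 10 genes. The share of all genes at that wider window is not given here, so this count has nothing to be set against. SETD1A had events at 9 of the 10 genes in wildtype, where 43.7% of all genes had one. Its reads were 1152.3 at Ier2, 718.5 at Egr1, 381.6 at Dusp1 and 40.4 at Egr3, with none at Egr2. The median gene with a SETD1A event had 220. The HA lists come from another culture than the remaining targets.

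The other 44 genes of the immediate early and serum response programme, among them the AP-1 genes and the TEAD and ERK factors, were counted in the same tables. For NELF in Zbtb11KO 0 of 43 were higher and 23 lower in the authors' deposited table, 53.5% beside 55.3% of all genes, led by the EGR family gene Egr4 (-2.48, DESeq2 adjusted p = 5.16e-05) and the clock gene Per1 (-1.60, adjusted p = 0.0125). For H3K4me3, 25 of 42 were higher and 8 lower in Zbtb11KO in the authors' deposited table, 59.5% and 19.0% beside 42.4% and 24.5% of all genes. In Zfp131KO 18 of 42 were higher and 0 lower in the authors' deposited table, 42.9% and 0% beside 33.5% and 4.18%. In listed reads 25 of 42 lay above the median gene in each single knockout. The nuclear receptor gene Nr4a3 (2.79) and the AP-1 gene Fosl2 (2.78) led the rises and Per1 (-1.25) and Fos (-1.15) the falls in Zbtb11KO, and Gadd45g (1.59) and Btg2 (1.29) the rises in Zfp131KO, in the authors' deposited tables. Relative to the median gene, their listed reads in Zbtb11KO lay at 1.05 for Nr4a3, 0.94 for Fosl2, -0.87 for Per1 and -0.66 for Fos, and in Zfp131KO at 1.49 for Gadd45g and 1.11 for Btg2, on the same side as the table for each. H3K27ac was higher at 2 of 38 and lower at 12 in Zbtb11KO in the authors' deposited table, 5.26% and 31.6% beside 3.7% and 9.94% of all genes. In Zfp131KO it was higher at 3 of 37 and lower at 6 in the authors' deposited table, 8.11% and 16.2% beside 4.56% and 11.1%. H3K27me3 was higher at 0 of 25 and lower at 3 in Zbtb11KO (0% and 12% beside 6.46% and 3.51% of all genes), and higher at 2 and lower at 2 of 25 in Zfp131KO (8% and 8% beside 9.95% and 6.59%), with the kinase gene Plk2 lowest in each (-2.05 and -3.39) in the authors' deposited tables. SIN3A was lower at 3 of 43 genes and higher at 0 in Zbtb11KO (6.98% and 0% beside 2.33% and 5.6% of all genes) and lower at 3 and higher at 2 of 43 in Zfp131KO (6.98% and 4.65% beside 1.57% and 5.62%), Junb being lower in each (-0.65 and -0.48) in the authors' deposited tables. CHD4 passed at 0 of 15 in Zbtb11KO and 0 of 19 in Zfp131KO at a DESeq2 adjusted p under 0.05 in the authors' deposited tables, and at 0 and 3 genes at an unadjusted p under 0.05.

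Across the 6 tables in which at least 8 of the 10 genes had a region, the genes nearest to their median log2 fold changes among 9825 genes were Sesn2, Adam15, Dcst1, Dcst2 and Dpp9, with a root mean square difference of 0.102, 0.105, 0.105, 0.105 and 0.116 on the log2 scale. Adam15, Dcst1 and Dcst2 share the same regions.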

How the data were processed

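ChIP-seq of 9 targets was measured in 48 samples of mouse embryonic stem cells, and the labels place them in 24 groups of 2. The submitters' processing notes name Bowtie 1.0.1, bedtools, DESeq2 1.28.1 and the build mm10. Per the file headers, the authors called binding events on the pooled libraries of a group and gave each a signal (reads assigned to it), its log2 ratio to control and a score for its p-value on a log2 scale. Per the file headers, the authors called domains on pooled libraries and gave each a read count and a p-value. The authors' deposited DESeq2 tables hold, per region, the mean signal, the log2 fold change and its standard error, the Wald score and the p-value with its adjusted form. Regions listed in the knockout alone had positive medians in the 10 tables checked, so a positive value was read as higher in the knockout, also in the SIN3A table of Zfp131KO, which has no usable list of its own for that check. There were 11 tables in use; a second NELF table and a second event list were identical to others and were not used. No file gave values per region and library, so the count model was the authors' own.

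Regions within 1 kb of either RefSeq gene end were collected with Python 3.11.15, pandas 2.3.3, numpy 2.4.6 and scipy 1.17.1, and plotted with matplotlib 3.10.9. The region with the highest mean signal stood for its gene, with a threshold of 0.05 on the adjusted p. Listed NELF reads were divided by the total reads of the header; domain reads were summed over stretches joined across genotypes and not scaled. Ratios over all genes used genes with at least 50 wildtype reads. The collecting steps were tested on simulated data. Alternatives were the window, the region taken, the threshold, centring and scaling. All 10 genes are described; of the 44 others, at most 2 rises and 2 falls per table were named, by size. No confidence intervals or detection floors were computed, as counts per library were not at hand. The genes, lists and settings were chosen with earlier results of these data known.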

Additional observations from a re-analysis of the deposited data

Results flagged for a closer look

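RefSeq starts of Egr2 and Nr4a1 lie more than 1 kb inside the gene, outside the windows used for the comparisons, and wildtype signal there was above control. At the internal starts of Egr2, H3K4me3 had 1839 reads against 138 control reads and NELF had 347.2 against 67.5. That H3K4me3 domain is part of the joined stretch of 1888 wildtype reads compared above, so it adds no further signal. The Egr2 H3K4me3 regions of the authors' deposited tables span these starts as well. At the internal start of Nr4a1, H3K4me3 had 1576 reads against 123, and NELF had 757.8 over 2 events, the larger with 641.1 against 30.3. NELF events at the Egr2 starts held 240.7 reads in the double knockout, 269.7 in Zbtb11KO, and 416, 143.6 and 83.2 in Zfp131KO, beside 347.2 in wildtype. At Nr4a1 they held 184.1 in the double knockout, 317.1 in Zbtb11KO and 531.7 and 110.5 in Zfp131KO. In the authors' deposited DESeq2 table, NELF at these starts in Zbtb11KO over wildtype was -0.22 at Egr2 (SE 0.44, adjusted p = 0.647) and -0.81 at Nr4a1 (SE 0.34, adjusted p = 0.042).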

How the results depend on the processing

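Of 103 alternative values for 15 results, 84 stayed within 1.5 times the value or 1 SD, 16 moved and 3 reversed. At an adjusted p under 0.01 the genes called in the authors' deposited DESeq2 tables were 3 for NELF in Zbtb11KO (6 at 0.05), 1 for H3K4me3 in Zfp131KO (4), 0 for H3K27ac in Zbtb11KO (4), 1 for H3K27me3 in Zfp131KO (4) and 1 for SIN3A in Zbtb11KO (2). Centring the NELF table on its median left 0. H3K27me3 in Zbtb11KO gave 1 in place of 2 with a window of 500 bp, the nearest region or the longest region. SIN3A in Zbtb11KO gave 1 with a window of 2 kb, the nearest region or regions at or above the median signal, and 0 with the longest region. SIN3A in Zfp131KO gave 0 with the nearest region in place of 1. The double knockout median for NELF was 0.70 scaled by reads in the list and -0.047 relative to all genes, in place of -1.81; for H3K4me3 it was -0.10 and -0.060 in place of 0.66. ZFP131 events lay at 2 genes at a log2 fold of 3 or more, in place of 4, and the share of all genes at that fold is not given here. The longest region was added after the data were seen. The causes were not tested. No paired analysis was possible because the lists and tables give no value per library, and no library could be left out. Whether depth limits the weak CHD4 and HA events and the domains of a few reads was not tested.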
